A study of Rattus norvegicus with 120 samples.

Results

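Peptides cut from a cell's own proteins are shown to T cells on MHC class I molecules, and 7 genes of that pathway were followed through the eyes of 120 rats: RT1-S3, B2m, Tap1, Tap2, Tapbp, Psmb8 and Psmb9. They are 7 of 14217 genes that had a probe set of their own and were taken as every probe set (a group of short probes against 1 transcript) annotated to one of these symbols alone, which gave 12 of the 31042 probe sets that were not array controls. RT1-S3 had 4 probe sets, B2m and Tap1 had 2 each, and the others had 1 each. Of the 12, 11 lay above the level filter used for tests, against 23326 of all probe sets, and each gene kept at least 1. The member below the filter was the weaker Tap1 probe set, with a mean of 3.78 on the log2 scale. Where 1 value per gene was needed, the probe set of highest mean was used.

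In this pathway a heavy chain, such as the product of RT1-S3, pairs with the light chain B2m (beta-2-microglobulin) to form the molecule that carries a peptide to the cell surface. Psmb8 and Psmb9 are catalytic subunits of the immunoproteasome, the form of the proteasome that favours peptides fit for class I, and Tap1 and Tap2 form the transporter that moves those peptides into the endoplasmic reticulum. Tapbp (tapasin) holds the empty class I molecule at that transporter. Interferons raise the transcription of the pathway in many cell types, and the eye, an immune-privileged organ, is known for low class I display on several of its tissues. In the rat, RT1 is the name of the MHC, where all members but B2m lie.

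All animals were 12-week-old males of the F2 generation of an SR/JrHsd x SHRSP intercross, and the labels place them in 1 group with no treatment. The F2 animals of such a cross differ in which parental allele they hold at each locus, and the series was made to map loci that set expression levels. RNA came from both eyes of an animal and went to 1 array, with no replicate arrays, so the spread over animals holds animal differences together with the error of 1 measurement. In bulk tissue, fewer cells of a type and less RNA per cell cannot be told apart. The titles hold a pair of codes that the labels do not explain, S (10 codes of 11 to 13 animals) and L (22 codes of 2 to 11 animals), and S code means were removed from each probe set unless stated otherwise.

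Markers of eye tissue were high on all arrays, with mean log2 levels of 13.34 for Sag (rod arrestin), 14.12 for Cryaa (a lens crystallin), 13.17 for Krt12 (a corneal keratin) and 9.76 for Rpe65 (pigment epithelium). Array medians lay between 5.78 and 5.96. The array of animal 63, marked in its title as scanned again, and that of animal 15 stood apart, with median correlations to the other arrays of 0.911 and 0.949 against a median of 0.982. Of 17 T and NK cell markers 8 were above the level filter, as was 1 of the 5 B cell markers with a probe set of their own, while all 17 macrophage and microglia markers were.

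Promoters are shown for 5 members, B2m, Tap1 and Psmb9 from the genes that moved with interferon-stimulated genes and Psmb8 and Tapbp as another close pair, all described further on. The windows of RT1-S3 and Tap2 are given by their matches alone. The windows run from 250 bases before to 50 after the RefSeq start in the GRCr8 assembly, written 5′ to 3′ on the gene's strand. B2m is at chr3:129549080-129549379 on the plus strand. Tap1 is at chr20:4668494-4668793 on the minus strand, and Psmb9 is at chr20:4668750-4669049 on the plus strand, so these genes point away from each other and their windows share 44 bases. Psmb8 is at chr20:4656982-4657281 and Tapbp at chr20:4967828-4968127, both on the minus strand. Capitals mark the core of the interferon-stimulated response element (GAAANNGAA on either strand) and, in Psmb8, the gamma-activated site TTCNNNGAA near the 5′ end of the window.
B2m: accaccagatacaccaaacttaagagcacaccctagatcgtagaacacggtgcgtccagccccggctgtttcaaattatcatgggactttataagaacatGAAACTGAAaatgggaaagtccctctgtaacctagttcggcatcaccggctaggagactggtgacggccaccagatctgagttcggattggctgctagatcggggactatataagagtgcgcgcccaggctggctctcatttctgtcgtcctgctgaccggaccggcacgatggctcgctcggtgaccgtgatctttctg
Tap1: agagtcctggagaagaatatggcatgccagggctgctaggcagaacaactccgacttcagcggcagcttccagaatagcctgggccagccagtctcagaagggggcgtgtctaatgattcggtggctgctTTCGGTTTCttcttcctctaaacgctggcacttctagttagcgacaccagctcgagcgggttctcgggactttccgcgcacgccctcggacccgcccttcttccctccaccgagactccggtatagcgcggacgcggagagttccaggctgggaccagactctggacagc
Psmb9: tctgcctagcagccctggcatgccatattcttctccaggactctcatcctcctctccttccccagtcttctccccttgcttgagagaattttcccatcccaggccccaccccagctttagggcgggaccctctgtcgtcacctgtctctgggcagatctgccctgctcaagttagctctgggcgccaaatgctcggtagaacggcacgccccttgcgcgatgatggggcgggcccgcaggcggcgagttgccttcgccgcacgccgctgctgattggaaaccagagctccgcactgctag
Psmb8: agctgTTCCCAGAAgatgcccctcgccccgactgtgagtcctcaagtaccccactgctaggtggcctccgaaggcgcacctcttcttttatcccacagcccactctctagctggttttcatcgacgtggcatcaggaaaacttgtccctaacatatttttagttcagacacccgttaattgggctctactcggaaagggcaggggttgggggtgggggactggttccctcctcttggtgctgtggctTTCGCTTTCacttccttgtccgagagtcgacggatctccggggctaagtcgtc
Tapbp: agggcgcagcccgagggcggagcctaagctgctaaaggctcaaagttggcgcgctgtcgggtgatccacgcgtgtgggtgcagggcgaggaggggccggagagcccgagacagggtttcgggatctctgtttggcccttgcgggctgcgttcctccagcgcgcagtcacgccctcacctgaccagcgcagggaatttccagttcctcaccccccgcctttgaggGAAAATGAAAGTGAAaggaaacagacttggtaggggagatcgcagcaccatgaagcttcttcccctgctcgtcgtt

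The interferon response core was found in 6 of the 7 promoter windows, while 9.71% of 33469 RefSeq promoter windows of the same length held it. In Tapbp a pair of overlapping matches lay between positions -26 and -12 from the start. The RT1-S3 window (chr20:2675278-2675577, plus strand) had its match, TTCTCTTTC, at positions -111 to -103, and the Tap2 window (chr20:4652247-4652546, minus strand) had GAAAGCGAA at -41 to -33. Psmb9 had no match in its window. The gamma-activated site was found in Psmb8 alone, against 8.87% of all windows, and the core of the class I kappaB element (GGATTCCC) in none, against 1.0%. The core of the X2 box (TGACG) was present in B2m and Psmb9, and that of the Y box (CCAAT) in RT1-S3, B2m, Psmb8 and Psmb9, against 21.2% and 37.5% of all windows. These are matches of letters, and no binding was measured.

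By the probe set of highest mean, B2m was the least variable member on the log2 scale and Psmb8 the most variable. Brightness depends on the probes as well as the transcript, so levels of different probe sets are not set against each other here. The heavy chain gene RT1-S3 (AJ243974) ran from 7.31 in the lowest animal through a median of 8.15 to 9.41 in the highest, with an SD of 0.35 (n = 120). Its other 3 probe sets had SDs between 0.34 and 0.38, and the 4 correlated with each other at r between 0.89 and 0.95. Class I heavy chain genes of the rat are a family of near-identical copies, so the share of this signal that comes from RT1-S3 itself is uncertain.

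The light chain gene B2m (NM_012512) lay between 11.37 and 12.35 with a median of 11.74 and an SD of 0.15. Its second probe set lay between 9.39 and 10.45 and followed the first at r = 0.87. Animals 13 and 84 were the 2 highest for both genes and on every one of their probe sets. For RT1-S3 these animals reached 9.41 and 9.34, against a median of 8.15, and for B2m 12.35 and 12.26.

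The transporter gene Tap1 (X57523) ran from 5.70 through 6.20 to 7.06, with an SD of 0.22, and animals 84 and 13 were again at the top. Its weak probe set did not follow it (r = -0.018). Tap2 (NM_032056), the transporter's other subunit, ran from 5.31 through 5.80 to 6.32, with an SD of 0.20. Its highest animal was 83, and animals 13 and 84 were not the top pair. Tapbp (NM_033098) spread more widely, from 6.74 through 7.59 to 8.32, with an SD of 0.32.

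With the probe set of highest mean for each gene, Psmb8 (NM_080767) had the largest SD of the 7 genes at 0.37. It ran from 6.58, in an animal whose array was scanned again, through 7.50 to 8.69 in animal 84. Psmb9 (AI599350) ran from 6.51 through 7.06 to 7.98, the highest value being that of animal 13, with an SD of 0.21. The members' median SD was 0.22, against 0.16 over all probe sets tested. A range of at least 2-fold over the animals was seen in 6 of the 7 genes (all but B2m, at 1.97-fold) and in 10 of the 11 probe sets, while 53.6% of all probe sets tested had it. With L code effects also removed, 3 of the 7 genes kept such a range.

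**Figure D1:**
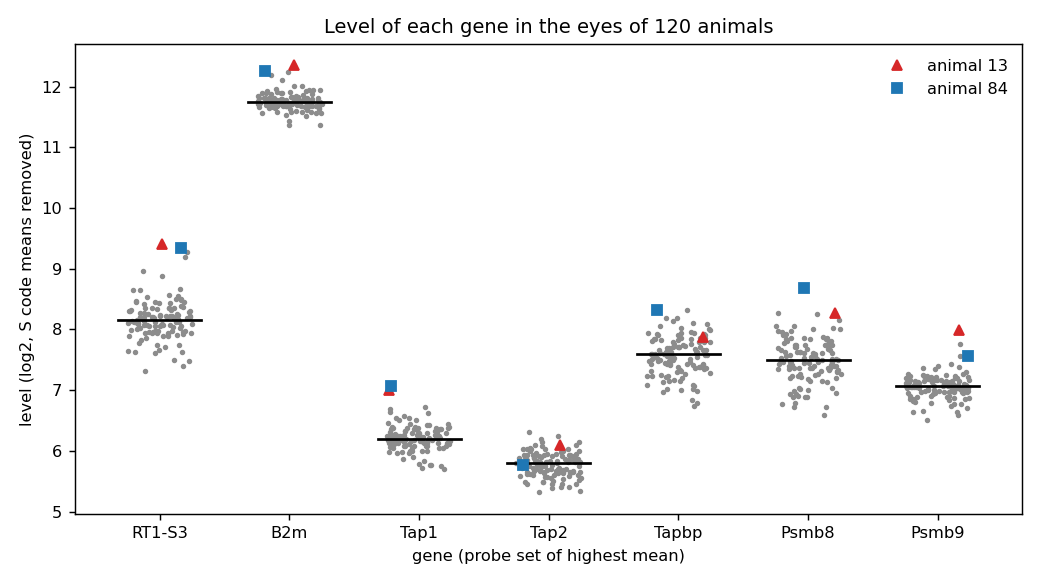
Level of each gene (log2, S code means removed, probe set of highest mean) in 120 animals, 1 grey point per animal, with the median as a line. Animals 13 and 84, marked by a triangle and a square, hold the 2 highest values of RT1-S3, B2m and Tap1 but not of Tap2.

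Over the 120 animals RT1-S3, B2m, Tap1 and Psmb9 correlated with each other at r between 0.63 and 0.83, and Tapbp and Psmb8 formed another close pair. The sets were not separate by Pearson's r: Psmb8 also passed with Psmb9, B2m and Tap1, and Tapbp with Psmb9. Tap2 passed with each of the first 4, at r between 0.22 and 0.42. By Spearman's rho Tap2 passed with RT1-S3 and Tap1. It did not with B2m (rho = 0.20, adjusted p = 0.0585 by permutation) or Psmb9 (0.14, adjusted p = 0.203 by permutation). The closest pair was the heavy and light chain, RT1-S3 and B2m, at r = 0.83 and rho = 0.71 (both p = 1e-05 in a two-sided permutation test within S codes, the smallest that 100000 permutations can give; adjusted p = 2.62e-05 and 3.00e-05 over the 21 pairs). Without the 2 animals farthest from the median r was 0.78, and within the 10 S codes it lay between 0.53 and 0.94. B2m and Psmb9 followed at r = 0.74 and rho = 0.63, and RT1-S3 and Tap1 at r = 0.68 and rho = 0.52, with the same p and the same adjusted values by permutation. Without the 2 farthest animals these values of r were 0.68 and 0.59.

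The levels of Tapbp and Psmb8 correlated at r = 0.72 and rho = 0.73 (both p = 1e-05 by permutation, adjusted p = 2.62e-05 and 3.00e-05), with r = 0.70 without the 2 farthest animals and between 0.54 and 0.90 within S codes. Psmb8 and Psmb9, which lie on either side of Tap1 and whose products sit in the same particle, correlated at r = 0.51 and rho = 0.40. Psmb8 had r = 0.38 with B2m (adjusted p = 0.000344 by permutation) and 0.24 with Tap1 (adjusted p = 0.0328 by permutation), and Tapbp had 0.27 with Psmb9 (adjusted p = 0.0114 by permutation). By rho Psmb8 and B2m passed (0.26, adjusted p = 0.0119 by permutation). Psmb8 and Tap1 (0.11, adjusted p = 0.331 by permutation) and Tapbp and Psmb9 (0.18, adjusted p = 0.079 by permutation) did not. The transporter's subunits, Tap1 and Tap2, reached r = 0.42 and rho = 0.36. Between the heavy chain RT1-S3 and Psmb8 r was 0.11 and rho -0.098 (adjusted p = 0.33 and 0.356 by permutation), and between RT1-S3 and Tapbp r was -0.095 and rho -0.24 (adjusted p = 0.388 and 0.0194). Of the 21 pairs, 15 passed an adjusted p of 0.05 and 7 had r of at least 0.6, against 2.18% of 75958975 pairs of all genes. By Spearman's rho, or with L code effects removed, 3 pairs reached 0.6. The median r over the members' pairs was 0.38 and that over all pairs 0.066.

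**Figure D2:**
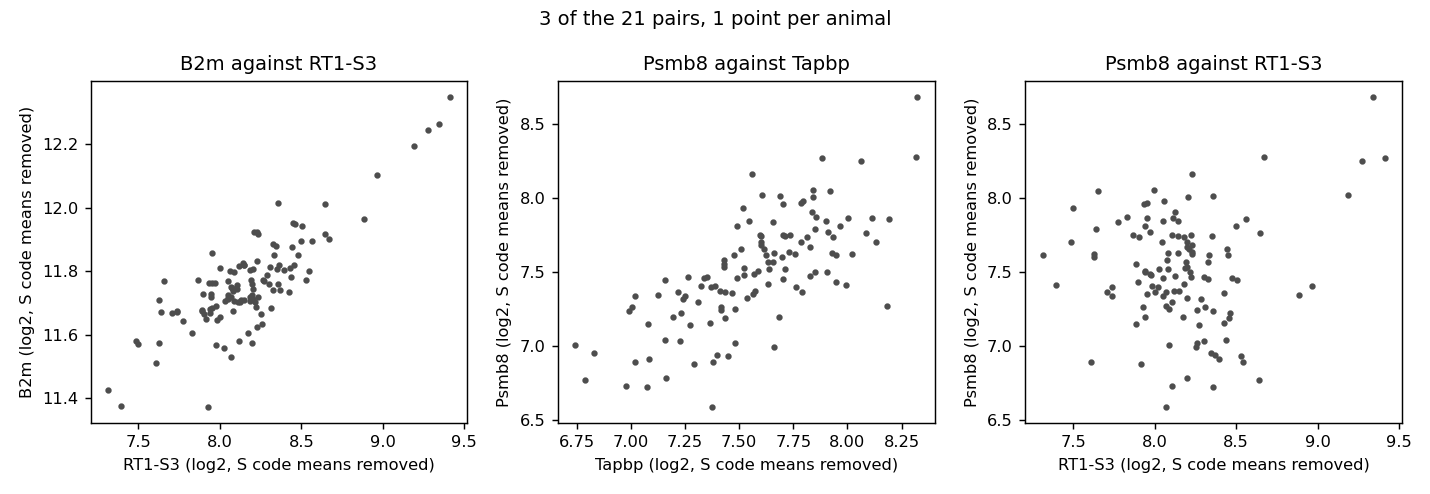
Level of 1 gene against another (log2, S code means removed), 1 point per animal, for B2m against RT1-S3, Psmb8 against Tapbp and Psmb8 against RT1-S3. The first 2 panels show r of 0.83 and 0.72, and the last shows no clear slope (r = 0.11).

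RT1-S3, B2m, Tap1 and Psmb9 moved with interferon-stimulated genes. A score, the mean of the standardised levels of 23 such genes (none of them a member), correlated with RT1-S3 at r = 0.87 and rho = 0.77, with B2m at 0.86 and 0.75, with Psmb9 at 0.77 and 0.64 and with Tap1 at 0.68 and 0.53. All had p = 1e-05 by permutation for both coefficients, and adjusted p = 3.50e-05 and 4.20e-05 over the 21 relations of the 7 members to this score and to the actin and GAPDH controls described further on. Without the 2 animals of most extreme score, r stayed between 0.57 for Tap1 and 0.84 for RT1-S3. Psmb8 had r = 0.41 and rho = 0.26, Tap2 had r = 0.30 and rho = 0.19 (adjusted p = 0.00479 and 0.0902 by permutation), and Tapbp had r = 0.15 and rho = 0.025 (adjusted p = 0.269 and 0.831). The differences between these correlations were not tested.

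The list was then read gene by gene from limma fits of all probe sets on the level of 1 member, with S code as covariate and Benjamini-Hochberg adjustment at 0.05. With B2m 22 of the 23 interferon-stimulated genes rose, where 12.4% of all probe sets did, and with RT1-S3 also 22, where 1.6% did. Oas1a, which makes a second messenger that activates an antiviral RNase, had r = 0.84 with both genes, and Irf7, a transcription factor of the interferon response, 0.80 with B2m and 0.83 with RT1-S3. With Psmb9 21 rose (10% of all) and with Tap1 20 (0.917%), led by Irf7 for Psmb9 (r = 0.78) and by the ubiquitin-like modifier Isg15 for Tap1 (0.71). With Psmb8 10 of the 23 rose (0.596% of all), Irf7 most clearly (0.48). With Tap2 15 rose (11.7%) and with Tapbp 4 (16.6%), both led by the membrane protein Bst2 at r of 0.43 and 0.36. None of the 23 fell with any member, where the share of all probe sets that fell was 5.49% for B2m, 0.352% for RT1-S3, 5.84% for Psmb9, 0.0686% for Tap1, 0.193% for Psmb8, 11.3% for Tap2 and 26.4% for Tapbp.

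The genes most like each of the 4 were also known interferon targets. For B2m they were Irgm2, a GTPase of cell-autonomous immunity (r = 0.85), Slfn4, Oas1a, Rtp4 and Usp18, and for RT1-S3 Rtp4 (0.84), Oas1a, Isg15, Slfn4 and Irf7. For Psmb9 they were Irf7 (0.78), Parp14, Ifi35, Slfn4 and Irgm2, and for Tap1 Slfn2 (0.71), Isg15, Irf7, Zbp1 and Irgm. All are likenesses over 120 animals, with 1 probe set per gene. Genes induced by interferon gamma split within their list. Irgm, Igtp, Gbp2, Gbp4 and the complement inhibitor Serping1 rose with B2m (5 of 10 measured), and Cxcl9, Ido1 and Icam1, with r of 0.18, -0.046 and 0.21, did not pass. The counts that rose were 5 for RT1-S3, 5 for Tap1, 7 for Psmb9, 2 for Psmb8, 2 for Tap2 and 2 for Tapbp. Of all probe sets 12.4% rose with B2m, 1.6% with RT1-S3, 0.917% with Tap1 and 10% with Psmb9. For Psmb8, Tap2 and Tapbp the shares were 0.596%, 11.7% and 16.6%, so 2 of 10 was near the share for Tap2 and Tapbp.

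Other genes of peptide supply followed in part. Psme2 and Psme1, which form the activator that caps the immunoproteasome, rose with B2m (r = 0.64 and 0.56), RT1-S3 (0.57 and 0.51) and Psmb9 (0.72 and 0.63), and so did Psmb10, the other inducible catalytic subunit (0.45, 0.38 and 0.61). In all, 4 of 12 measured genes of peptide loading and trimming rose with B2m, 4 with RT1-S3, 3 with Tap1 and 5 with Psmb9, and none fell. The shares of all probe sets that rose with these members were 12.4%, 1.6%, 0.917% and 10%. With Psmb8, Psme2 alone rose (r = 0.38), where 0.596% of all did. With Tapbp 3 rose, Calr and Pdia3 (chaperones of the same loading complex, r = 0.49 and 0.40) and the peptidase Thop1 (0.44), and Tpp2 fell (-0.42). Of all probe sets 16.6% rose and 26.4% fell with Tapbp. Of 13 genes of the constitutive proteasome, 4 rose with B2m and 6 with Psmb9, and none passed with RT1-S3, Tap1 or Psmb8. Without animals 63 and 15 none of the 13 rose with B2m or Psmb9, and with the actin and GAPDH differences as covariates none of the loading genes passed with Tapbp. Among 22 regulators, Irf9 and Stat2, parts of the complex that interferon activates, rose with B2m (0.75 and 0.61), RT1-S3 (0.71 and 0.64) and Psmb9 (0.60 and 0.67). Of all probe sets 12.4%, 1.6% and 10% rose with these members. Irf9 and Stat2 were named for their large t and do not stand for the other regulators.

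Macrophage and microglia markers rose in part with B2m, Psmb9 and RT1-S3, for which 12.4%, 10% and 1.6% of all probe sets rose. Of 17 macrophage and microglia markers 11 rose and 1 fell with B2m, 9 rose and 1 fell with Psmb9, and 7 rose with RT1-S3, led by Ptprc and Fcer1g for B2m (r = 0.50 and 0.48). With Tap1 1 rose and with Psmb8 none passed. Without animals 63 and 15 the counts that rose were 7 for B2m, 9 for Psmb9 and 5 for RT1-S3. Of the 8 T and NK cell markers above the filter, 1 rose and 2 fell with B2m, 1 rose and 1 fell with Psmb9, and none passed with RT1-S3, Tap1 or Psmb8. Without animals 63 and 15 none passed with B2m or Psmb9. Jchain, the only B cell marker measured, rose with B2m, RT1-S3 and Psmb9 (0.53, 0.42 and 0.45). The part of such cells in the members' levels was not tested.

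The share of all probe sets that followed B2m and Psmb9 rested on few arrays. Without animals 63 and 15, 291 probe sets rose and 48 fell with B2m, against 2888 and 1281 with them, and 820 rose and 340 fell with Psmb9, against 2336 and 1362. For RT1-S3 the counts went from 372 and 82 to 202 and 15. The interferon-stimulated list did not thin in the same way: 21 of 23 rose with B2m, 20 with Psmb9, 21 with RT1-S3 and 22 with Tap1 without these 2 animals.

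Tapbp and Tap2 moved with a measure of RNA and labelling quality. The arrays carry probe sets at the 3′ and 5′ ends of actin and GAPDH, and their difference is larger where RNA is degraded or its labelled copies are short. Tapbp fell with this difference for actin (r = -0.51, rho = -0.45) and GAPDH (-0.47 and -0.39), and so did Tap2 (-0.38 and -0.33, then -0.37 and -0.29), with adjusted p between 3.50e-05 and 0.00643 by permutation. For the other members r lay between -0.16 and 0.077. With both differences as covariates, 273 probe sets rose and 129 fell with Tapbp, against 3874 and 6148 without, and 41 rose and 7 fell with Tap2, against 2723 and 2644. In that fit 2 of 23 interferon-stimulated genes rose with Tap2 and 0 with Tapbp.

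Most of the genes most like Psmb8, Tapbp and Tap2 lay on their own chromosome. Psmb8 was closest to RT1-T24-3 (r = 0.89), RT1-CE16 (0.82) and RT1-A3 (0.79), all class I heavy chain genes of chromosome 20, then to Lgals9 and Ly6e on other chromosomes (0.53 and 0.51). Tapbp was closest to RT1-A3 (0.76), Vps52 (0.73), RT1-T24-3 (0.72) and RT1-CE16 (0.66), then to Eif4g1 on chromosome 11 (0.58), with Cdkn1a, a cell cycle inhibitor of the same chromosome, at the other end (-0.74). Tap2 was closest to Elf3 on chromosome 13 (0.51), then to RT1-CE10, Sapcd1, Ank3 and RT1-Bb of chromosome 20 (0.49 to 0.47). As with RT1-S3, probes of these heavy chain genes may bind near-identical copies. Of 356 measured genes of chromosome 20, 37 (10.4%) followed Psmb8 in either direction, against 0.518% of genes elsewhere. For RT1-S3 the shares were 7.30% and 2.18%, for Tap1 2.53% and 1.24%, and for Psmb9 17.4% and 17.2%. For Tapbp they were 47.5% and 43.6%, and with the actin and GAPDH differences as covariates 13.8% and 0.978%. For Tap2 they were 24.2% and 21.2%, then 3.65% and 0.0418% (13 of 18 genes). B2m, the member on chromosome 3, had 18.4% there and 19.6% elsewhere. Without animals 63 and 15 the shares on the gene's own chromosome and elsewhere were 1.61% and 1.84% for B2m, 7.30% and 5.82% for Psmb9 and 5.06% and 1.06% for RT1-S3.

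Immediate neighbours did not all take part. Among the 10 measured genes on each side in the assembly, 2 rose and 2 fell with Psmb8, and the gene next to it, Tap1, had r = 0.24 and did not pass in that fit. RT1-S3 rose with the genes on either side, H2-Q7-ps1 (r = 0.54) and RT1-T24-4 (0.63), and with no other neighbour. Tap1 rose with Psmb9, whose promoter window overlaps its own (0.63), with Tap2 (0.42) and with the class II accessory gene RT1-DMb (0.37). With Tapbp 8 of 20 neighbours rose and 4 fell, from Vps52 at 0.73 and RT1-A3 at 0.76 to Kifc1 and Wdr46 at -0.41. With Tap2 6 rose and 1 fell, with Psmb9 6 rose and 3 fell, and with B2m 5 rose and 1 fell, among them Slc28a2 (0.54).

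RT1-Bb, a class II beta chain gene 2 places from Psmb8, was the gene that opposed it most (r = -0.69) and was among the 5 most like Tap2 (0.47). Its own level was split, with 27 animals between 4.28 and 5.98 and 93 between 6.97 and 9.60. RT1-Bb was thus chosen on its relation to Psmb8 and Tap2, whose slopes are given as a description: over the animals Psmb8 was lower by 0.18 per log2 unit of RT1-Bb (SE 0.018) and Tap2 higher by 0.066 (SE 0.012). With RT1-Bb as the regressor, limma also called 2 of the other 5 members, where 0.266% of all probe sets rose and 0.193% fell. These 2 were not independent of the choice, as Tapbp correlated with Psmb8 (r = 0.72) and RT1-S3 with Tap2 (0.41). Their adjusted p-values are thus a description as well and no test. Tapbp fell by 0.14 per log2 unit (SE 0.017, adjusted p = 2.34e-10) and RT1-S3 rose by 0.095 (SE 0.021, adjusted p = 0.00436), as did 2 of its other 3 probe sets. B2m, Psmb9 and Tap1 did not pass (adjusted p of at least 0.952). These 2 calls were also made with the actin and GAPDH differences, the L code or the interferon score as covariates and without animals 63 and 15. Of the 356 genes of chromosome 20, 43 (12.1%) followed RT1-Bb, against 0.0418% elsewhere.

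Because RT1-Bb fell into separate levels, the relation was also read within each. Psmb8 ran from 7.60 through 7.86 to 8.69 in the 27 animals of the lower level and from 6.58 through 7.40 to 8.27 in the other 93, so the ranges overlapped. Tapbp ran from 7.52 through 7.85 to 8.32 and from 6.74 through 7.48 to 8.19. Within the upper level Psmb8 had r = -0.51 and rho = -0.55 with RT1-Bb, and Tap2 0.21 and 0.21. Tapbp had r = -0.52 and rho = -0.53 there (p = 1e-05 by permutation within S codes, adjusted p = 7.0e-05 and 4.67e-05 over 14 relations). RT1-S3 had r = 0.41 and rho = 0.49 (adjusted p = 0.000327 and 4.67e-05 by permutation). As RT1-Bb was chosen on Psmb8 and Tap2, these p-values are a description too. B2m, which did not pass over all animals, passed within the upper level at r = 0.24 and rho = 0.32 (adjusted p = 0.0247 and 0.0015 by permutation). Tap1 and Psmb9 did not. In the lower level none of the 7 passed, with r of -0.43 for Psmb8, -0.21 for Tapbp, 0.29 for Tap2 and -0.16 for RT1-S3. This does not show that the relations are absent there, as the 27 animals were few per S code and were permuted within codes. S code means had been removed over all animals and not again within a level, so differences between S codes could remain there. Permutation within codes keeps such differences, so the permuted r need not centre on no correlation. The p-values by permutation thus need not follow the size of r, and did not, at 0.262 for Psmb8 and 0.0905 for RT1-S3. As the same holds in the upper level, the p-values of both levels are a description and no test.

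**Figure D3:**
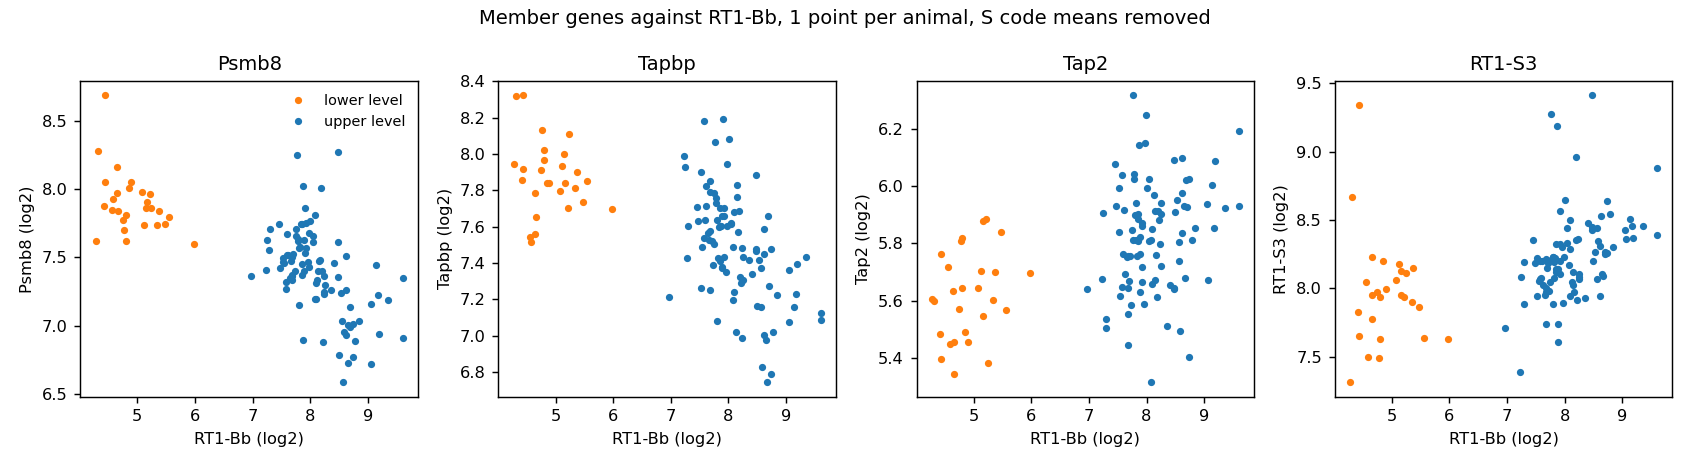
Psmb8, Tapbp, Tap2 and RT1-S3 against RT1-Bb (log2, S code means removed), 1 point per animal, with the 27 animals of its lower level in orange and the other 93 in blue. Psmb8 and Tapbp decline over the 93 animals (r = -0.51 and -0.52), while RT1-S3 climbs (0.41). These 93 pool the middle and high fitted levels of RT1-Bb.

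Some pairs changed sign when the interferon score or RT1-Bb was regressed out of the members. With the interferon score removed, B2m and RT1-S3 kept r = 0.31 (adjusted p = 0.00428 by permutation), whereas Tapbp and Psmb8 kept r = 0.73. RT1-S3 then ran against Psmb8 (r = -0.55, adjusted p = 7.0e-05 by permutation) and against Tapbp (-0.47, adjusted p = 7.0e-05 by permutation). With RT1-Bb removed instead, a setting chosen after seeing the data, RT1-S3 rose with Psmb8 (r = 0.57, adjusted p = 1.91e-05 by permutation). B2m rose with Psmb8 (0.62) and Tap2 with Tapbp (0.40), and 19 of 21 pairs passed, all positive. Tapbp and Psmb8 then had r = 0.52. RT1-Bb was chosen on its opposite relations to Psmb8 and Tap2, and removing such a gene can raise r by itself. The changes of sign, the p-value and the count with RT1-Bb removed are thus a description and no test.

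**Figure D4:**
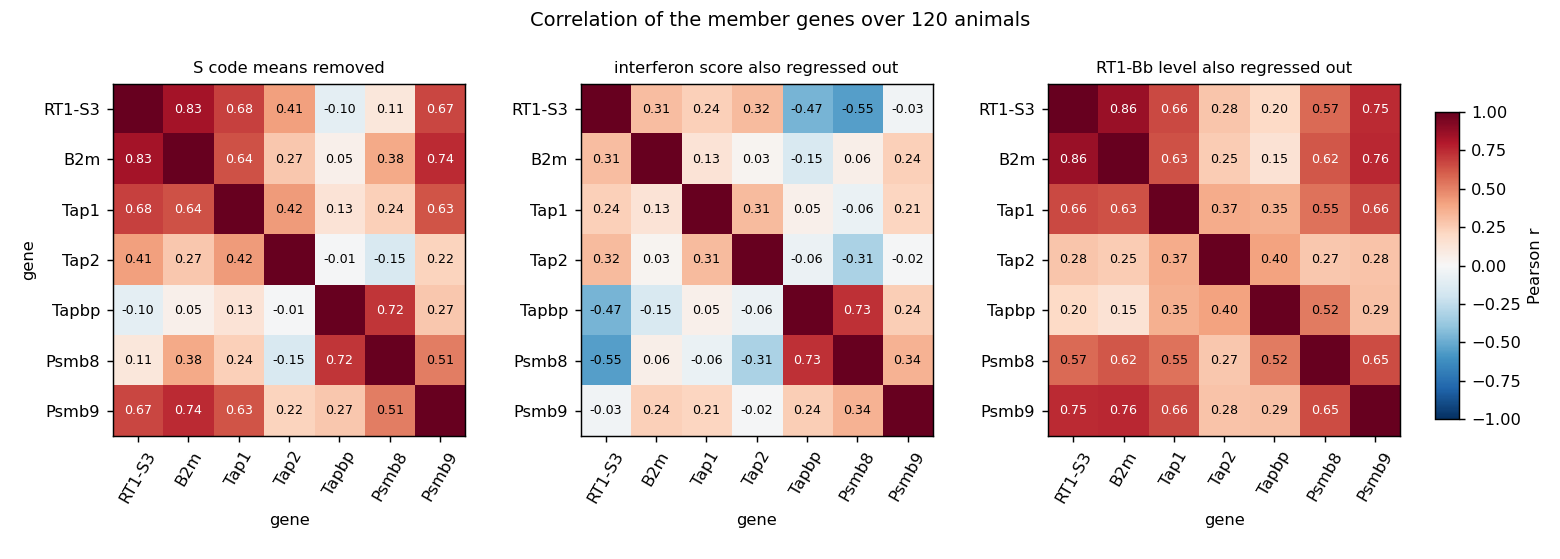
Pearson r between the 7 genes over 120 animals, as deposited with S code means removed (left), with the interferon score also regressed out (middle) and with the level of RT1-Bb also regressed out (right). RT1-S3 and Psmb8 have r of 0.11, -0.55 and 0.57 in the 3 panels.

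A moderated F test in limma was run on the codes in the titles. For the S code, which goes with a date in the titles for 5 of its 10 values and with none for the others, 6 of the 7 genes passed an adjusted p of 0.05, where 92.1% of all probe sets did. Psmb8 did not (adjusted p = 0.605). For the L code, with S as covariate, 4 of the 7 genes passed, where 4.58% of all probe sets did. Shares for this code are of the variance left after the S code. The 4 were Tap1 (42.1%, adjusted p = 0.00519), RT1-S3 (37.1%, 0.0281), Psmb9 (36.99%, 0.0331) and B2m (37.4%, 0.0358). Each of these is the gene's brightest probe set. The other B2m probe set (adjusted p = 0.085) and 1 of the other 3 of RT1-S3 (adjusted p = 0.134) did not pass. Over all probe sets the median share was 22.8%. Tap2, Tapbp and Psmb8, at shares of 21.8%, 18.2% and 17.7%, did not pass (adjusted p = 0.494, 0.668 and 0.687). With the interferon score as a further covariate 0 of the 7 passed (adjusted p of 0.256 for Tap1 and more for the others), while 1025 of all probe sets did, against 1068 without it. Leaving out animal 84 left Tap1 alone, leaving out animal 13 left Tap1 and RT1-S3, and leaving out single S codes left between 1 and 4 genes.

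With the S and L codes fitted together, the 6 animals of L code 17 had the highest fitted mean for RT1-S3, B2m and Tap1. They also had it for Psmb8 and Tap2, for which the code did not pass. The ranges and folds below are of values with S code means removed. Their RT1-S3 levels ran from 8.07 through 9.08 to 9.34, and the other animals ran from 7.31 through 8.14 to 9.41, with 1 of them above the median of the 6. For B2m the 6 ran from 11.75 through 12.15 to 12.26 and the others from 11.37 through 11.74 to 12.35. For Tap1 they ran from 6.18 through 6.62 to 7.06 and the others from 5.70 through 6.19 to 7.0. The groups overlapped for all 7 genes. The mean of the 6 was 1.65-fold that of the others for RT1-S3, 1.33-fold for Tap1 and 1.32-fold for Psmb8. It was 1.28-fold for Psmb9, 1.26-fold for B2m, 1.13-fold for Tap2 and 1.13-fold for Tapbp. Animal 84 carried this code and animal 13 did not. For Psmb9 the highest fitted mean was that of L code 3, which had 2 animals. For Tap1 that code was close behind L code 17 (fitted means of 6.61 and 6.66), so the order there depends on the fit. L code 17 was picked for its means, so no test was made.

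**Figure D5:**
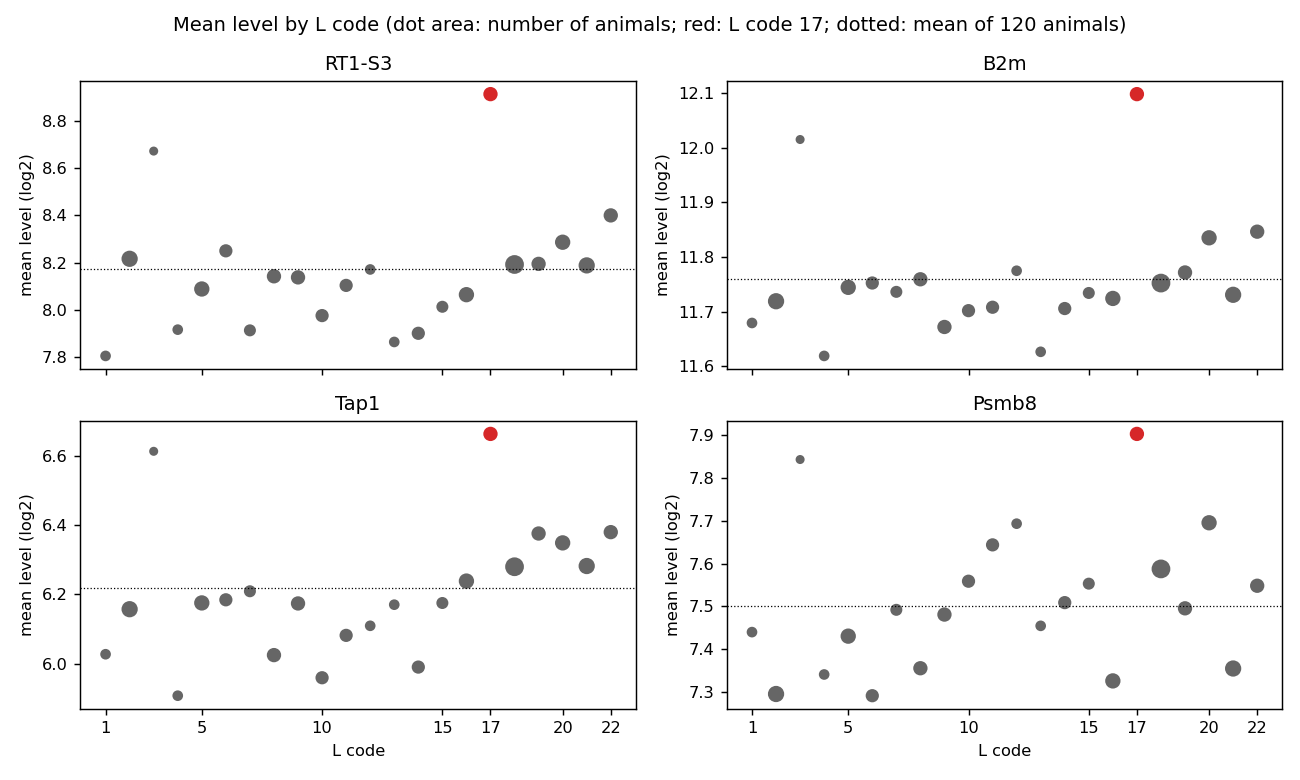
Mean level by L code (log2, from a fit of the S and L codes together) for RT1-S3, B2m, Tap1 and Psmb8. Dot area gives the number of animals, and L code 17 is in red. The 6 animals of L code 17 are highest in each panel, and the code passed the test for the first 3 genes but not for Psmb8.

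The members were then set against the distribution that 1 segregating locus of large effect gives in an F2 generation, 3 levels in proportions 1:2:1, and none was called. The mixture was called where its BIC, a score of fit that penalises complexity, undercut the best single distribution by over 10, as it did for 0.244% of all probe sets tested. For the 11 member probe sets the difference went the other way, at -8.63 for Tapbp, -9.04 for Tap2, -9.59 for Psmb8 and further below 0 for the others. RT1-Bb was called, with a difference of 85.9 and levels of 4.91, 7.86 and 8.73. In simulated data the call missed many loci even where the levels lay several SDs apart, so a member that was not called may still have such a locus.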

How the data were processed

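The authors deposited log2 values of 120 rat eye arrays from RMA (robust multi-array averaging, no version given), per the submitters' processing notes. RMA corrects background, normalises between arrays and combines each set's probes, which may hide a shift common to most genes. A strain variant under a probe can pass for a difference in expression. The array annotation's build was not given in the sources used here. Probe sets were named through the platform annotation, with symbols updated by Entrez number from a RefSeq table (GRCr8), which also gave neighbours and promoters. Of the probe sets other than controls, 20826 had 1 symbol, 436 several and 9780 none. All 7 members matched a promoter.

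Members and gene lists were chosen with earlier results of these data known. Probe sets with a mean of at least 4.283 (the 25th percentile) were tested. Fits used limma 3.58.1 in R 4.3.3, correlations used numpy 2.4.6, and all adjusted p-values are Benjamini-Hochberg. The fits and the mixture call were tested on simulated data. The genes named were the members, the 5 most like each, the 10 measured neighbours on either side, and up to 4 of each list of largest t. A few list genes outside the 4 (Psmb10, Gbp2, Gbp4, Serping1, Pdia3, Cxcl9, Ido1 and Icam1) and genes at the low end of likeness were named after their values were seen. Nothing in the labels says that animals differ in treatment, and p-values measure the spread between single arrays. Precision is limited by the number of arrays.

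The alternatives were no removal of S code means, L code effects or 5 principal components also removed, Spearman rho, no level filter, an adjusted p of 0.01, a BIC difference over 20, array medians subtracted, rescanned arrays left out, the interferon score or the actin and GAPDH differences as covariates, another probe set per gene and each S code left out. Leaving out animals 63 and 15, 13, 84 or 63, and every fit with RT1-Bb, were chosen after seeing the data.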

Additional observations from a re-analysis of the deposited data

How the results depend on the processing

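No paired analysis was possible because all animals belong to 1 group. Among the counts of members, pairs, interferon-stimulated genes and followers, those outside 1.5 times the reported value are as follows. Pairs with r of at least 0.6 numbered 3 by Spearman, 3 with L code effects removed and 1 with the interferon score removed, against 7, and 5 to 7 without single S codes. Of 7 member genes, 3 ranged over 2-fold with L code effects removed. For the L code, 1 member gene passed at an adjusted p of 0.01, 0 with the interferon score as covariate, 2 without animal 13, 1 without animal 84 and between 1 and 4 without single S codes. Over all probe sets the L code count was 474 at 0.01, 3003 without S as covariate, 2123 with the actin and GAPDH differences, and 643 to 1774 without single S codes, against 1068. The mixture was called for 32 probe sets at a BIC difference over 20, 97 with no removal and 17 with L code effects removed, against 57, with 0 members in each.

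At an adjusted p of 0.01 the share of tested probe sets following a member, in either direction, was 3.17% for B2m (17.9% at 0.05), 0.849% for RT1-S3 (1.95%), 0.519% for Tap1 (0.986%), 6.90% for Tap2 (23.01%), 28.4% for Tapbp (42.97%), 0.519% for Psmb8 (0.789%) and 4.94% for Psmb9 (15.9%). The interferon-stimulated genes that rose were then 6 with Psmb8, 6 with Tap2 and 2 with Tapbp. With the L code as covariate, 0.472% followed Psmb8 and 0.262% Tap1, and the interferon-stimulated genes numbered 1 for Psmb8, 11 for Tap1, 3 for Tap2 and 2 for Tapbp. With the interferon score as covariate, which is made of the same genes, 2.01% followed B2m, 0.287% RT1-S3, 37.4% Tap1, 36.9% Tap2 and 2.91% Psmb9, and the list's own genes that rose numbered 0, 0, 3, 2 and 1, and 0 for Psmb8. Without the rescanned arrays 1.04% followed B2m, 0.853% RT1-S3 and 5.74% Psmb9, and without animals 63 and 15, 1.45%, 0.930% and 4.97%. With the actin and GAPDH differences 0.206% followed Tap2 and 1.72% Tapbp, with 2 and 0 interferon-stimulated genes rising. The cause was not tested for any of these.

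Of 420 values of r under alternatives, 366 kept their sign and their side of the threshold, 25 lost their call, 12 gained one, 11 changed sign with no call in either setting and 6 changed sign with a call. With the interferon score removed r became -0.55 for RT1-S3 and Psmb8, -0.034 for RT1-S3 and Psmb9, -0.064 for Tap1 and Psmb8 and -0.015 for Tap2 and Psmb9. With RT1-Bb removed it became 0.40 for Tap2 and Tapbp and 0.27 for Tap2 and Psmb8. Tap1 and Psmb8, B2m and Tap2, and Tap2 and Psmb9 lost their call under 4 or more alternatives each.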
